A study of Mus musculus with 56 samples.

Results

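The genes described here are 10 mouse genes of the heart and of muscle: the chromatin remodelling subunit gene Smarcd3, the transcription factor genes Casz1, Nkx2-5, Hand1, Hand2, Isl1, Myod1 and Myf5, and the contractile protein genes Myl7 and Mybpc2. They were covered by 45 of the 61420 H2A.Z peaks of the study: 19 peaks that the authors' lists of changed peaks assign to these genes, and 38 peaks at the genes themselves or within 5 kb of either end, with 12 in both counts. The genes were chosen by measured values as well as by function. Smarcd3, Mybpc2 and Myl7 were selected on their wide promoter peaks with lower H2A.Z, and Casz1 on its 8 lower peaks, so the values below describe the choice and carry no test.

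H2A.Z, a variant of histone H2A, was mapped by CUT&Tag, in which an antibody brings a transposase to chromatin and the tagged fragments mark where the protein lies. The cells were mouse embryonic stem cells of the line RHKI(E14Tg2a), which carry a doxycycline-inducible, HA-tagged Rnaseh1 knocked into the genome. All sample labels give this line, while the series' design text also names a line ZX-1 that no sample label gives. RNase H1 removes the RNA strand of RNA:DNA hybrids. The H2A.Z libraries were 4 from untreated control cells and 4 from cells given 500 ng/ml doxycycline for 48 h, all with the knock-in and all in 2i/LIF medium that held 2% FBS, the MEK inhibitor PD0325901 at 1 µM and the GSK3 inhibitor CHIR-99021 at 3 µM. Whether the line is a single clone, and whether the 4 libraries of a group are separate cultures, is not given in the sources used here. The labels list 56 libraries in all, and the other 48, made for other targets or with IgG, are not analysed here. Lower and higher mean lower or higher after doxycycline, as read from the names of the authors' lists. The lists give positions and gene annotation without a fold change, a p-value or a value per library, so neither the size of a difference nor its error over the 4 libraries of a group can be given, and the depth behind each peak is unknown. A peak in neither list was not called by the authors, which does not show that its H2A.Z was equal in both groups. Since the files hold no expression values, the cell type could not be checked on its marker genes, and the induction of Rnaseh1 was not measured.

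H2A.Z lies mainly in the nucleosomes beside transcription start sites (TSSs) and at enhancers. In embryonic stem cells it also covers the promoters of developmental regulators that are silent but poised for later use, many of which sit in CpG-rich sequence. Nkx2-5, Hand1, Hand2 and Isl1 are core transcription factors of the early heart, whose fields are laid down in mesoderm well after the embryonic stem cell stage. Myod1 and Myf5 are the factors that commit cells to skeletal muscle. Smarcd3, also called Baf60c, is the BAF complex subunit known for its part in heart muscle formation. Myl7 and Mybpc2 encode parts of the finished contractile apparatus.

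The promoters of these genes differ widely in base composition, and 4 are shown because they span that range in each class of peak: Smarcd3 and Myl7, whose TSS lay in a lower peak, and Isl1 and Myf5, whose TSS lay in a peak of neither list. Each line holds the 250 bases before the TSS from RefSeq (GRCm38.p6), read 5′ to 3′ on the strand of the gene, with every CG dinucleotide in capitals.
Smarcd3, chr5:24602003-24602252, minus strand: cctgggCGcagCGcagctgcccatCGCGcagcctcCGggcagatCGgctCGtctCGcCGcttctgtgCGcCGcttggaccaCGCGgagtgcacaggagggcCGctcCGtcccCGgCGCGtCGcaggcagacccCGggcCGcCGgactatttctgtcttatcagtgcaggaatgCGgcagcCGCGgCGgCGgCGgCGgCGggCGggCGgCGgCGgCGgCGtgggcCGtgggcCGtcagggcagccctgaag
Isl1, chr13:116309689-116309938, minus strand: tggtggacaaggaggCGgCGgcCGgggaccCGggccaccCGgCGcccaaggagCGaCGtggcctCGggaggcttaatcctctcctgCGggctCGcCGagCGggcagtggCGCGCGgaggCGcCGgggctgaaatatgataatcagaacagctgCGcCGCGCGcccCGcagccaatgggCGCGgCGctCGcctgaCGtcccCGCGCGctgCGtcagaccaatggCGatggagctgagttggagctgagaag
Myl7, chr11:5898783-5899032, minus strand: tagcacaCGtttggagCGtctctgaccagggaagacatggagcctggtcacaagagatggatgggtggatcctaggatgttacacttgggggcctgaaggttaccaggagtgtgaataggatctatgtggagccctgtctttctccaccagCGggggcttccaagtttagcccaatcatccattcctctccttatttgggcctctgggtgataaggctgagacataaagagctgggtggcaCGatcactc
Myf5, chr10:107486135-107486384, minus strand: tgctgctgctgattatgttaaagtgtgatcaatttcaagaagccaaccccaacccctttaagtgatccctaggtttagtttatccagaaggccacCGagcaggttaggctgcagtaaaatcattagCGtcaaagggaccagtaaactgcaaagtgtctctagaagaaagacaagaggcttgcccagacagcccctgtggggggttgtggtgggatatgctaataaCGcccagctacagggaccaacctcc

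Smarcd3 had 38 CpG dinucleotides in this window and a GC content of 76.0%, and 97.7% of the 21263 promoters of protein-coding genes in the table had fewer. Isl1 had 33 at a GC content of 71.2%, and 94.9% of promoters had fewer. The promoters of Myl7 and Myf5 were poor in CpG, with 4 and 3 against a median of 10 over all promoters. These 4 genes were chosen to span the range of CpG content in each class of peak. They therefore cannot show whether CpG content separates lower from uncalled TSS peaks. Of the other genes in the table, the first Casz1 promoter had 27 CpG, Hand2 had 15, and Mybpc2 and Nkx2-5 had 8 each. The table holds 8 of the 10 genes. Hand1 and Myod1 are named without sequence.

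Over all promoters in 4 classes of CpG number, the share of TSS peaks that were lower was larger in each richer class. With 0 to 3 CpG, 11.8% of TSSs lay in an H2A.Z peak and 16.2% of those lay in a lower one. With 11 to 19 CpG these shares were 70.6% and 31.3%. With 20 to 56 CpG, 61.0% lay in a peak and 38.0% of those in a lower one. Myl7, with 4 CpG, fell in the class with 4 to 10 CpG, where 54.9% lay in a peak and 23.2% of those in a lower one. Myf5 fell in the class with 0 to 3, where 11.8% of TSSs lay in a peak, and its own TSS was among them.

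The Myl7 promoter, which drives the gene for the atrial regulatory light chain of myosin, held matches to 2 motifs of heart muscle transcription factors within 61 bases of the TSS: a CArG box, bound by serum response factor, and GATAAG, bound by GATA factors. They are shown in capitals in the 46 bases around them.
Myl7, chr11:5898808-5898853, minus strand: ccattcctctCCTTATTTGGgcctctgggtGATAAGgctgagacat

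On either strand, a CArG box occurred in 1.39% of all promoters of this length and GATAAG in 6.25%. Smarcd3 also held 1 match to GATAAG, read on the opposite strand. Myf5 held 1 match to CTANNNNTAG, a loose form of the MEF2 site found in 3.06% of promoters, and 3 to AAGTG, the core bound by NKX2-5, found in 39.7%. Myl7 and Hand2 held 1 match each to AAGTG, and in both it overlapped an E-box. The E-box CANNTG, bound by bHLH factors such as MYOD1 and HAND2, was in 62.8% of promoters. It was present in all of these promoters except Myf5 and both of Casz1. These matches describe letters in the window and not binding.

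H2A.Z was lower at part of the peaks of 6 of the 10 genes: Smarcd3, Mybpc2, Myl7, Casz1, Nkx2-5 and Myod1. Hand1, Hand2, Isl1 and Myf5 had peaks but none that was lower within 5 kb of the gene. Of the 38 peaks at the 10 genes, 17 were lower, 0 were higher (0.518% in the whole peak set) and 21 were in neither list. That share of 44.7% stood beside 20.3% of all peaks within 5 kb of a protein-coding gene and 14.8% of the whole peak set. Casz1 alone gave 8 of the 17, and without it 9 of 24 peaks (37.5%) were lower. The 4 genes picked for their lower peaks, Smarcd3, Mybpc2, Myl7 and Casz1, held 14 lower peaks of 21 (66.7%). The other 6 genes held 3 of 17 (17.6%), which is near the 20.3% of all peaks within 5 kb of a protein-coding gene. These 6 were also chosen with the lists of changed peaks in view, so they are not an unselected group.

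Counted by gene, 6 of 10 had a lower peak within 5 kb, beside 39.6% of all protein-coding genes with a peak there. Each of the 10 genes had a TSS inside an H2A.Z peak, beside 49.9% of 17494 protein-coding genes. The second TSS of Casz1 lay in no peak. At Smarcd3, Mybpc2 and Myl7, picked for their promoter peaks, a peak at the TSS followed from the choice. Of the 10 TSS peaks, 6 were in the lower list (Smarcd3, Mybpc2, Myl7, Casz1, Nkx2-5 and Myod1), beside 30.4% of genes whose TSS lies in a peak. Among the other 6 genes, also chosen with the lists in view, 2 TSS peaks were lower, those of Nkx2-5 and Myod1. Under a narrower rule, a peak centred within 1 kb of the TSS, 6 of the genes had such a peak. A lower one was found at 4 (Smarcd3, Mybpc2, Myl7 and Myod1), beside 32.0% of all protein-coding genes with such a peak. For protein-coding genes without a known TSS, that share counts a peak near either end of the gene.

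**Figure D1:**
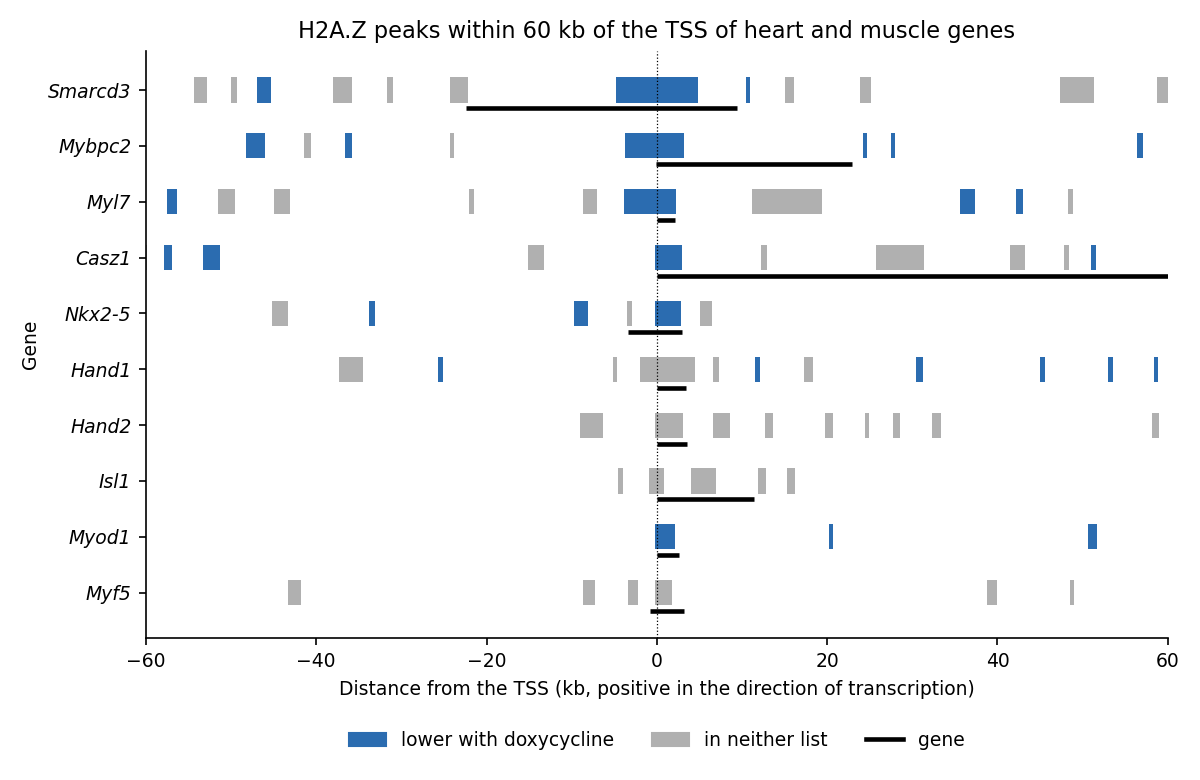
H2A.Z peaks within 60 kb of the TSS of each of the 10 genes, drawn to scale in kb with transcription running to the right; colour marks peaks in the authors' lower list and peaks in neither list, and the gene body is drawn beneath. Hand2, Isl1 and Myf5 have no lower peak in the window, and Myod1 has lower peaks alone.

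The authors' annotation gives each peak to the gene with the nearest TSS, and it assigned a lower peak to 7 of the 10 genes, where it did so for 26.5% of all protein-coding genes. This is the assignment the genes were chosen by, so nothing is read from that share. It assigned 18 lower peaks, of which 6 lay beyond 5 kb of their gene. Conversely, 5 of the 17 lower peaks at these genes were assigned to a neighbour, at Smarcd3, Mybpc2 and Casz1. Isl1 was the only one of the 10 with an assigned higher peak, beside 0.918% of protein-coding genes and 0.518% of all peaks that were higher.

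Among the heart transcription factors, Nkx2-5, the homeodomain factor of the early heart tube, had lower H2A.Z at its TSS. The lower peak ran over chr17:26838693-26841806 (3114 bp, GRCm38) and reached from 241 bp before the TSS to 2872 bp after it, and the authors annotate its centre to intron 1. A second lower peak of 1757 bp stood at chr17:26849593-26851349 in a CpG island, centred 8906 bp before the TSS. The third, of 778 bp, lay 33436 bp upstream. The 2 other peaks at the gene, of 1368 bp and 627 bp, were in neither list. The 627 bp peak covered the annotated 5′ end of the gene, which lies before the TSS used here. The 2 peaks called lower within 5 kb were thus the widest of the 4 there.

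Hand1 and Hand2, paired bHLH factors of the heart ventricles and the limb, had broad H2A.Z over the gene that was in neither list. The Hand1 peak at chr11:57827631-57834161 was 6531 bp wide and covered the whole gene, and it also took in 2054 bp of the lncRNA gene Gm32915. The Hand2 peak at chr8:57320769-57324010 was 3242 bp wide and covered most of the gene, and it overlapped 91 bp of the lncRNA gene Hand2os1, which runs the other way. The 2 genes differed in their surroundings. Hand1 had 3 lower peaks assigned to it, all between genes, all of the minimum width of 501 bp, and centred 11825 bp after, 25396 bp before and 72334 bp before the TSS. Hand2 had none assigned, and none of the 9 peaks within 60 kb of it was lower.

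Isl1, the LIM homeodomain factor that marks second heart field progenitors and motor neurons, had 5 peaks within 5 kb and none was in either list. Their widths were 924, 973, 2915, 1827 and 501 bp, and the 1827 bp peak at chr13:116308821-116310647 held the TSS. The single higher peak of the 10 genes was assigned to Isl1. It lay between genes at chr13:116514578-116515254, was 677 bp wide, and was centred 205228 bp before the TSS.

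Casz1, a zinc finger factor needed for heart development, had the most peaks of the 10 genes, 14 over a gene at chr4:148804366-148954893, and 8 of them were lower. The TSS peak at chr4:148804165-148807349 (3185 bp) was lower and reached 2957 bp into the gene against 227 bp before it. A run of 5 neighbouring peaks from chr4:148855424 to 148892069 was lower without a break. They measured 501, 501, 760, 501 and 1667 bp, the first 4 in intron 2 and the last in exon 3 of a noncoding transcript, near the second TSS at 148889347. The 2 further lower peaks lay toward the end of the gene, one of 5033 bp in intron 4 and one of 1139 bp at the transcription end. The authors' annotation assigns both to the neighbouring gene model Gm13205.

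The 6 Casz1 peaks in neither list measured 628, 5612, 1720, 630, 764 and 4385 bp. Lower and uncalled peaks overlapped in width there: all 3 peaks of the minimum width in the gene were lower, the widest peak of all was in neither list, and the medians were 949.5 bp for lower and 1242 bp for the others. The count of 8 also arises from the authors' assignment, but with other peaks. It takes 6 of the 8 in the gene and adds 2 upstream, of 887 and 1994 bp, centred 57412 and 52275 bp before the TSS. The nearer of these is annotated to a simple repeat, (GGA)n. Of all genes in the authors' annotation, Gse1 with 12, the lncRNA gene A330074K22Rik with 9, and Nol4l and Slc22a12 with 8 each had at least as many lower peaks assigned.

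**Figure D2:**
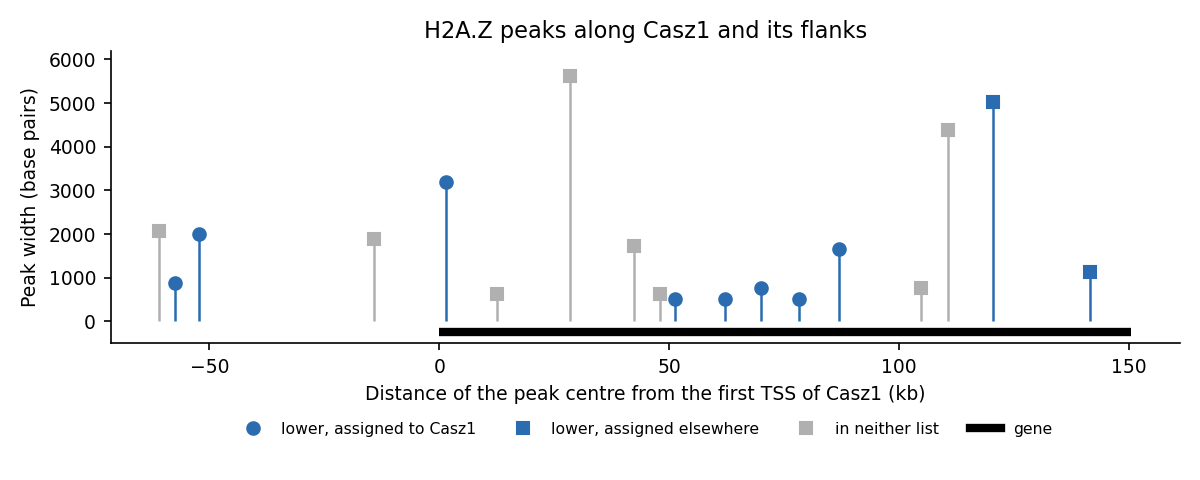
H2A.Z peaks along Casz1 and the region before it, with the distance from the first TSS in kb on the horizontal axis and the width of each peak in bp on the vertical axis; colour marks lower peaks and peaks in neither list. The run of 5 neighbouring lower peaks lies inside the gene, and the 5612 bp peak in neither list is the widest in it.

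The share of genes with a lower peak was larger among genes with more peaks. Over all protein-coding genes, 26.5% of those with 1 peak within 5 kb had a lower peak, 51.4% of those with 3 and 63.2% of those with 10 or more. Casz1 belongs to the last class of 402 genes. Myl7 and Myod1, each with 1 peak that was lower, belong to the first.

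The skeletal muscle factors Myod1 and Myf5 differed from each other in the same way as the heart factors did among themselves. Both are bHLH factors that start the myogenic programme. Myod1 had 1 peak, at chr7:46376242-46378599 (2358 bp), which was lower and covered 81.2% of the gene. Both other peaks within 60 kb of Myod1 were lower too, and the authors assign both to the neighbour Kcnc1. Myf5 had a TSS peak of 1929 bp at chr10:107484400-107486328 and another of 1211 bp before the gene, and neither was in a list. None of the 6 peaks within 60 kb of Myf5 was lower.

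Smarcd3 had the widest TSS peak of the 10 genes. It spanned chr5:24597218-24606765, 9548 bp, was centred 11 bp from the TSS and extended 4763 bp before it and 4784 bp after it. Of all peaks of the study, 99.7% were narrower. Of the 207 peaks at least as wide, 9 were lower (4.35%). Among lower peaks that the authors annotate to a promoter it ranked 2 by width, between the homeobox genes Irx3 (9726 bp) and Msx1 (8619 bp). A second lower peak of 501 bp lay just beyond the 3′ end and was assigned to the microRNA gene Mir671, 849 bp before its TSS. The remaining peak, of 2155 bp at chr5:24624186-24626340, covered the annotated 5′ end of the gene and was in neither list. The TSS used here, at 24602002, lies inside the gene, downstream of that end.

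The contractile genes Mybpc2 and Myl7 had wide lower peaks as well. Mybpc2 encodes the fast skeletal muscle form of myosin binding protein C. Its TSS peak at chr7:44521514-44528408 was 6895 bp wide, and 45 of the 740 peaks at least as wide were lower (6.08%). The peak also covered 2414 bp of the 3′ end of Spib, a gene of the same strand that encodes a B cell transcription factor, so it cannot be given to Mybpc2 alone. The 2 other peaks at Mybpc2, each of 501 bp, were lower too and were assigned to the neighbour Fam71e1. All 3 peaks within 5 kb of Mybpc2 were thus lower, as were 8 of the 10 within 60 kb of it. The authors assign the lower peaks beyond 5 kb to the other genes Lrrc4b, Aspdh, Josd2, Nr1h2 and Napsa.

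The Myl7 peak at chr11:5896552-5902692 was 6141 bp wide, held the whole gene of 2146 bp, and was the only peak within 5 kb of it. It reached 3910 bp before the TSS and 2230 bp after it, and it also took in part of a neighbouring gene, so it cannot be given to Myl7 alone. Of the 1096 peaks at least as wide, 78 were lower (7.12%). By width among lower promoter peaks, Mybpc2 ranked 5, between Smpd5 (7175 bp) and Nkx3-2 (6814 bp), and Myl7 ranked 9, between Slc22a12 (6437 bp) and Emp3 (5838 bp).

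Among wide peaks, a smaller share was in the lower list. The share of lower peaks fell from 14.8% over all peaks to 9.85% among those at least as wide as the Casz1 TSS peak and 4.35% among those as wide as that of Smarcd3. The Hand1 peak, 6531 bp wide and in neither list, lay between those of Mybpc2 and Myl7 in width. The TSS peaks of Hand2 (3242 bp, neither list) and Casz1 (3185 bp, lower) were nearly equal in width. Width alone thus did not sort the 10 genes by call.

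**Figure D3:**
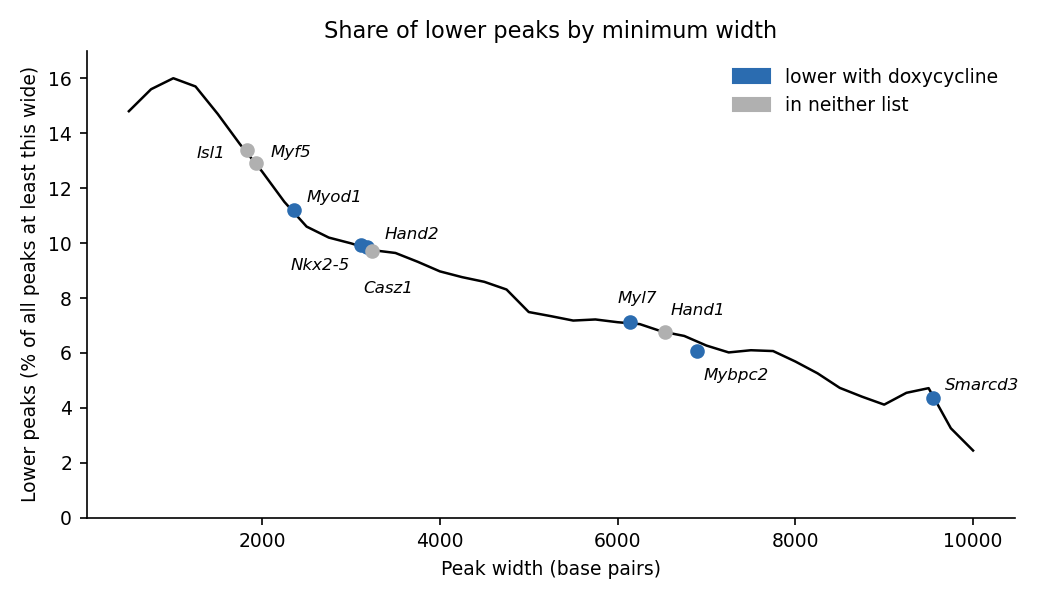
Share of H2A.Z peaks in the authors' lower list, in percent, among all peaks at least as wide as the value on the horizontal axis (bp), with the TSS peaks of the 10 genes placed on the curve and coloured by call. The curve stands at 14.8% for all peaks and at 4.35% at the width of the Smarcd3 peak.

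The TSS peaks differed in how far they reached before the TSS. In Casz1, Nkx2-5, Hand2, Myod1 and Myf5 the peak began 194 to 241 bp before the TSS and ran 1734 to 3027 bp into the gene. In Smarcd3, Mybpc2 and Myl7, the genes picked for wide promoter peaks, it extended over 3000 bp before the TSS as well. The peaks of Hand1 (2014 bp before, 4516 bp after) and Isl1 (959 bp before, 867 bp after) belonged to neither group, and that of Isl1 reached the least far into the gene of the 10. Over the 10124 TSSs of protein-coding genes that lie in a peak, the median extent was 644 bp before and 726.5 bp after the TSS. A start at most 250 bp upstream, a limit chosen after these values were seen, was found at 12.4% of them, and 41.5% of those lay in a lower peak against 28.4% of the others. An extent of more than 3000 bp upstream was found at 6.37%, of which 14.4% lay in a lower peak. The 5 genes with the short upstream part included 3 lower peaks (Casz1, Nkx2-5 and Myod1) and 2 in neither list (Hand2 and Myf5).

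**Figure D4:**
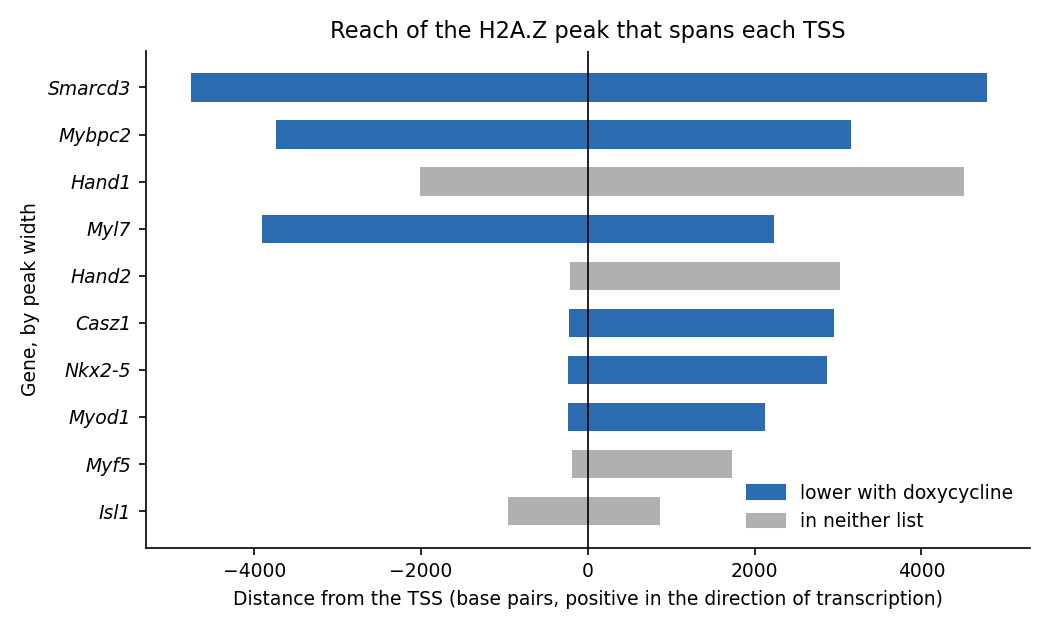
Extent of the H2A.Z peak that holds the TSS of each of the 10 genes, in bp from the TSS with transcription running to the right; each bar is 1 peak, coloured by the authors' call. The peaks of Casz1, Nkx2-5, Hand2, Myod1 and Myf5 begin 194 to 241 bp before the TSS, while that of Smarcd3 extends 4763 bp before it.

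Within 60 kb of the 10 genes lay 92 peaks, of which 38 were lower (41.3%) and none was higher. In the whole peak set 14.8% were lower and 0.518% higher. The whole set includes peaks far from genes. The share was 18.0% within 20 kb of all protein-coding genes and is not given here for 60 kb. The 4 genes picked for lower peaks held 26 lower peaks of 52 (50.0%), and the other 6 held 12 of 40 (30.0%). The genes fell apart in this wider view. All 3 peaks around Myod1 and 8 of 10 around Mybpc2 (80.0%) were lower, followed by Casz1 with 10 of 18 (55.6%), Hand1 with 6 of 11 (54.5%) and Nkx2-5 with 3 of 6 (50.0%). Myl7 had 4 of 11 (36.4%) and Smarcd3 had 4 of 13 (30.8%). Hand2, Isl1 and Myf5, which had no lower peak at the gene, had none in the wider window, among 9, 5 and 6 peaks. Hand1 was the exception, with 6 lower peaks around a TSS peak in neither list, part of them assigned to the neighbour 2010001A14Rik. Many lower peaks in this window were assigned to other genes, such as Kcnc1 near Myod1, so they cannot be given to the 10 genes alone.

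The paralogues of the 10 genes, a list also chosen with earlier results known, held genes with a lower peak and genes with none. Of 21 paralogues, 18 had a peak within 5 kb and 12 of those had a lower one (66.7%), beside the 39.6% of all protein-coding genes. In the Nkx2 family, Nkx2-1, Nkx2-3, Nkx2-4 and Nkx2-9 had a lower peak like Nkx2-5, and the widest was that of Nkx2-3 (6578 bp), a factor of the gut and spleen. Nkx2-2 (4 peaks, the widest of 6829 bp) and Nkx2-6 (1 peak) had none. Isl2, the motor neuron relative of Isl1, had a single lower peak of 7312 bp that held its TSS, where the TSS peak of Isl1 was in neither list. Among the 4 myogenic factors, Myog had 2 lower peaks of 2 at the gene, the wider of 1346 bp, like Myod1. Myf6, which neighbours Myf5, had 2 peaks and none lower, among them the 1211 bp peak also counted at Myf5. The authors assign it a higher peak of 501 bp centred 105869 bp before its TSS.

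Other families were less alike. Twist2 had a lower peak of 3130 bp and its relative Twist1 had 1 peak in neither list. Of the Smarcd3 paralogues, Smarcd2 had 1 lower peak of 2, of 761 bp, and Smarcd1 had no peak. Mybpc3, the heart form of myosin binding protein C, had 1 lower peak of 5, of the minimum width, and the slow skeletal form Mybpc1 had 10 peaks and none lower. Of the light chain genes, Myl9 had 2 lower of 2 and the ventricular Myl2 had 2 of 5, while the other atrial gene, Myl4, had 0 of 6. The widest lower peak at these relatives of Myl7 and Mybpc2 measured 1290 bp. Mybpc3 and Mybpc1 also had peaks in neither list, of up to 6070 and 4277 bp. Myl7 and Mybpc2 were picked for their wide lower peaks, and 78 of all 9077 lower peaks were at least as wide as that of Myl7. No contrast with the relatives is therefore read from these widths.

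Further genes of heart and muscle were counted in lists that leave the 10 out. Of 24 other heart transcription factors, 23 had a peak within 5 kb and 12 a lower one (52.2%, beside 39.6% of all protein-coding genes). The widest were at Foxc1 (6642 bp), Irx4 (6116 bp), Mef2d (5450 bp) and Gata4 (3843 bp), while Hopx and Tbx20 had wide peaks of 5970 and 4900 bp and none that was lower. Of 19 skeletal muscle transcription factors, all had a peak and 7 a lower one (36.8%). Lbx1 (3089 bp), a factor of migrating muscle precursors, and Barx2 (3088 bp) had the widest lower ones. Six4 (7125 bp), Mkx (5746 bp) and Msc (3843 bp) had peaks in neither list. Counted by peak, 18 of 71 were lower at the heart factors (25.4%) and 14 of 47 at the skeletal muscle factors (29.8%). The share at protein-coding genes was 20.3%.

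Contractile genes gave similar shares. In heart, 21 genes had a peak, and at 11 of them one was lower (52.4%, beside 39.6% of all protein-coding genes). Counted by peak, 22 of 113 were lower (19.5%), beside 20.3% at protein-coding genes, and these genes had a median of 4 peaks each. Myh6, a myosin heavy chain gene of heart, had a lower peak of 4709 bp that the authors assign to its intronic microRNA gene Mir208a. Ttn, which encodes titin, had 16 peaks and none lower, and Ryr2, the calcium release channel of heart, had 1 lower of 13. In skeletal muscle, 11 of 22 had a lower peak (50.0%). They included Ckm, muscle creatine kinase, with 3 of 3, Actn3, the fast fibre actinin, with 2 of 2, and Ryr1, the skeletal muscle counterpart of Ryr2, with 6 of 10. The authors assign 1 lower peak to Ckm and 2 to Ryr1, and give the widest at Ckm, of 4019 bp, to the neighbour Klc3. Smooth muscle genes gave 3 of 8 (37.5%), at Smtn, Myh11 and Tagln.

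Of the subunits of the BAF complex other than Smarcd3, 13 of 22 with a peak had a lower one (59.1%). With no flank, 9 of 17 had one. At Smarcc2, Dpf2, Actl6b, Bicra and Bicral the authors assign no lower peak to the gene, and the widest lower one to a neighbour. Of the 9 subunit genes with a TSS in a peak, 2 had a lower one there, beside 30.4% of all such genes. The widest lower peak was at Dpf1 (5746 bp), the subunit of the neuronal complex, followed by the ATPase gene Smarca2 (3674 bp) and Bcl7a (2144 bp). Bcl7c (5626 bp), Ss18 (2207 bp) and Brd7 (2052 bp) had peaks in neither list. By summed peaks the 7 lists of related genes, markers left aside, ranged from 12.9% lower for smooth muscle (4 of 31) to 32.0% for the paralogues (16 of 50), beside 20.3% at protein-coding genes. None of the lists had a higher peak within 5 kb of a gene, beside 0.518% of all peaks that were higher. The exact 95% Clopper-Pearson intervals of the shares of genes were wide, such as 30.6 to 73.2% for the heart transcription factors and 8.52 to 75.5% for smooth muscle. They cover the counting of genes only, and apart from the paralogues (41.0 to 86.7%) each of these lists' intervals held the 39.6% of all genes. These intervals describe lists chosen with earlier results known.

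Markers of other cell types were counted in the same way. Of 8 embryonic stem cell markers, Klf4, Esrrb, Tfcp2l1 and Tdgf1 had a peak within 5 kb, 8 peaks in all and none lower (0 of 4 genes, exact interval 0 to 60.2%). Pou5f1, Sox2, Nanog and Zfp42 had no peak. Of 8 fibroblast markers, 6 had a peak and 4 a lower one (66.7%, exact interval 22.3 to 95.7%), beside 39.6% of all protein-coding genes. The lower peaks measured 4209 bp at Pdgfra, 3130 bp at Twist2, 1552 bp at Col1a2 and 1010 bp at Thy1. Col1a1 (widest 4845 bp) and Col3a1 (widest 2426 bp) had peaks within 5 kb and none lower. The part of other cells in the calls at the 10 genes was not tested.

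**Figure D5:**
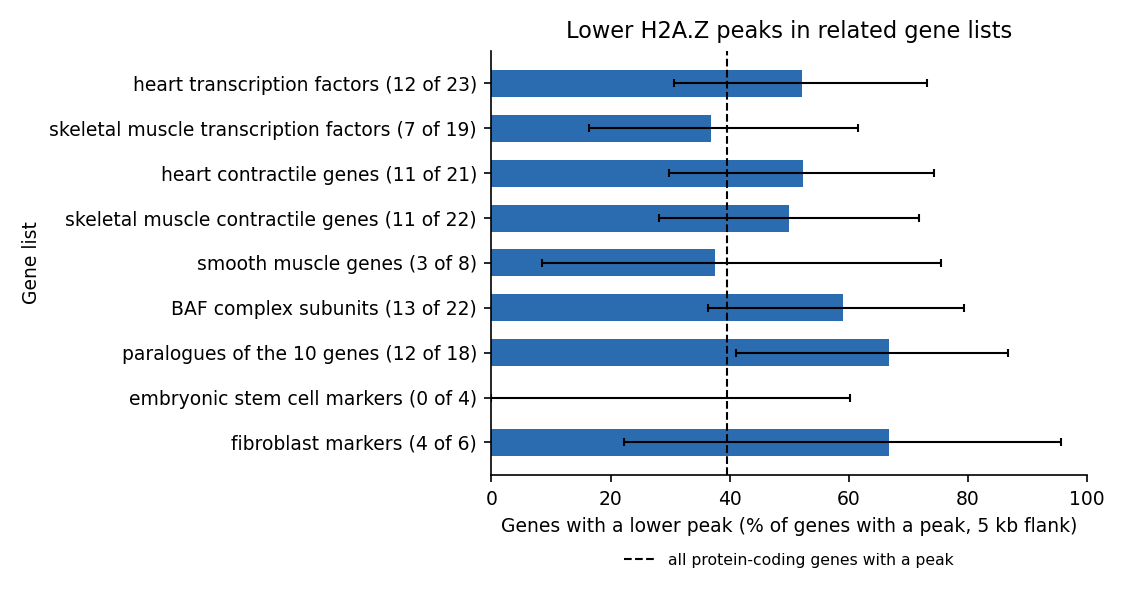
Share of genes with an H2A.Z peak within 5 kb that had at least 1 lower peak, in percent, for each list of related genes and marker genes, which leave out the 10 genes; bars give the share, error bars the exact 95% Clopper-Pearson interval, and the dashed line the 39.6% of all protein-coding genes. The paralogues and the fibroblast markers stand at 66.7%, the embryonic stem cell markers at 0 of 4 genes.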

How the data were processed

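H2A.Z CUT&Tag was compared between 4 control and 4 doxycycline libraries of mouse embryonic stem cells. The submitters' processing notes name the build GRCm38 and the tools Bowtie2, deepTools, HOMER, Picard and Trimmomatic. For their roles and versions, the peak caller, the test, its threshold and any pooling, the answer is not given in the sources used here. HOMER annotatePeaks annotated the lists of 9077 lower and 318 higher peaks, per the file headers. The peak score the authors deposited was 0 for every peak and was not used. Each of the 9395 listed peaks matched a peak of the whole set in start and end. Since no file holds a value per library, depth and replicate error are unknown and no test was run.

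A peak was counted at a gene if it overlapped the gene or 5 kb on either side by at least 1 bp. Gene ends and TSSs came from RefSeq tables of GRCm38.p6, and the TSSs of Hand1 and Myod1 from the distances the authors deposited. Starts count from 1. The 9 lists hold 153 genes, all matched, and 12 genes stand in more than 1 list. The 10 genes and all lists were chosen with earlier results of these data known. Genes were named by rule: the 10 genes, up to 4 genes of each list with the widest lower peak and up to 3 with no lower peak, the neighbours by width, and the genes with as many lower peaks as Casz1. Some genes that the rule names are not reported here. Paralogues outside this rule were named after their values were seen. Alternatives changed the flank, the TSS window, the overlap rule, the minimum width and the assignment. The overlap count was tested on simulated intervals. The software was pandas 2.3.3, numpy 2.4.6, SciPy 1.17.1 and matplotlib 3.10.9 under Python 3.11.15.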

Additional observations from a re-analysis of the deposited data

How the results depend on the processing

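Of 59 values recomputed for 16 results under other settings, 50 kept within 1.5 times the value given (for shares, within the interval) and none reversed. The number of peaks at the 10 genes rose from 38 to 92 with a flank of 60 kb. The number of genes with a TSS peak moved from 6 for a peak centred within 1 kb to 3 for 500 bp, and to 10 for 3 kb, for any overlap of the window and for a peak that spans the TSS. The number with a lower one moved from 4 to 2 for 500 bp and to 6 for each of the other 3 rules. By the authors' assignment 1 embryonic stem cell marker had a lower peak, against 0 by position. The share of lower peaks at all protein-coding genes moved from 20.3% to 21.7% with no flank and 18.0% with 20 kb. The share of lower peaks at the 10 genes ranged from 36.5 to 50.0%. The flank of 60 kb and the spanning rule were chosen after the data were seen. No paired analysis was possible because the files hold no value per library, and leaving out a replicate was not possible for the same reason. Without depth or fold changes, a weak difference at Hand1, Hand2, Isl1 or Myf5 cannot be told apart from none.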
